A study of Mus musculus with 72 samples.

Results

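The unfolded protein response of the endoplasmic reticulum (ER) was followed through 10 genes, Xbp1, Herpud1, Sdf2l1, Creld2, Pdia4, Hyou1, Manf, Edem1, Syvn1 and Calr, in liver and suprachiasmatic nucleus (SCN) tissue. The mice ate a control diet or a methionine- and choline-deficient (MCD) one. The rule takes genes by symbol, the set of 10 having been chosen with earlier results of these data known, and each symbol was found in both count tables, among 22823 genes listed for liver and 15759 for SCN. All 10 passed the filter on low counts in both tissues, which left 20249 liver and 15759 SCN genes.

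As background, proteins bound for secretion or membranes fold inside the ER, and unfolded protein there activates the sensors IRE1, ATF6 and PERK. IRE1 splices Xbp1 mRNA into the form that encodes an active transcription factor. XBP1 and ATF6 raise genes for folding, export and disposal of ER proteins, whereas PERK slows translation and raises a separate set of genes through ATF4. The liver secretes most plasma proteins and carries a daily rhythm tied to feeding, and the SCN is the brain's master clock. Of the 10 genes, Xbp1 encodes the transcription factor. Hyou1, Pdia4, Calr, Creld2, Sdf2l1 and Manf encode proteins of the ER lumen: an Hsp70-like chaperone, a disulfide isomerase, the lectin chaperone calreticulin, a disulfide isomerase-like protein, a partner of the chaperone BiP and its DnaJ cofactors, and a secreted BiP-binding factor. Edem1, Herpud1 and Syvn1 serve ER-associated degradation as a mannosidase-like lectin, a scaffold of the ubiquitin ligase complex and the ubiquitin ligase Hrd1 itself.

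C57BL/6 mice (C57BL/6J in part of the labels) aged 8 to 12 weeks, housed singly with free access to food, ate the MCD diet or an isocaloric control diet through 10 days of light-dark cycle and a following day of constant darkness, when they were killed at circadian time (CT) 0, 4, 8, 12, 16 or 20. Each of the 12 combinations of diet and time has 3 liver and 3 SCN libraries, 72 in all. No genotype or other agent differed between groups. The labels give 2 males and 1 female per group, while the protocol text speaks of males. Liver came from the left lobe and the SCN from laser microdissection, and the labels do not tie a liver library to an SCN library of the same mouse. Libraries are separate samples, and p-values measure the spread between them.

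Total counts assigned to genes, in megareads (M), came to 52.6 to 86.7 M per liver library and 23.3 to 79.8 M per SCN library. The marker genes fitted the labelled tissues: all 6 hepatocyte genes were expressed in liver and 1 of 6 was in the SCN table, while all 8 SCN neuron genes were in the SCN table and 2 of 8 passed the filter in liver. Some liver libraries stood apart. On a score over the 200 genes that separated the diets most at CT0, scaled to -1 for the control and +1 for the MCD mean at CT0, 1 library labelled control CT8 (library a) lay at 0.0771, against -1.08 to -0.642 in the other 14 control libraries scored and 0.406 to 0.970 in the 15 MCD libraries. Liver libraries also fell into 2 kinds by the mitochondrial transcript mt-Nd6, with 21 low (8 control, 13 MCD) and 15 high (10 control, 5 MCD). For the genes studied here the female libraries at CT20 stood apart in both diets, although on the diet score they matched their labels (control -0.974, MCD 0.803). Values below are CPM, a gene's counts scaled to a common library size with edgeR's TMM factors, as mean ± SD or per library. A call is an adjusted p under 0.05 in edgeR's quasi-likelihood test over all genes of the tissue.

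The promoters of 4 of the 10 genes hold a motif named for this response, and these are shown. Regulation through the motif was not measured here. The ER stress response element (ERSE, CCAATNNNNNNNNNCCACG) binds NF-Y with ATF6 or XBP1, and the related ERSE-II is ATTGGNCCACG. Both strands of the RefSeq promoters on GRCm38.p6 were searched, from 250 bases before to 50 bases after each gene's start, and 8 of the 10 genes had an entry, all but Hyou1 and Manf. ERSE was present in 39 of 32851 promoters (0.119%), among them Calr, Creld2 and Syvn1, and ERSE-II in 12 (0.0365%), among them Herpud1. The sequences below read 5′ to 3′ along the gene's own strand with the motif in capitals; in Calr and Creld2 the motif lies on the opposite strand, so its reverse complement is in capitals.
Calr: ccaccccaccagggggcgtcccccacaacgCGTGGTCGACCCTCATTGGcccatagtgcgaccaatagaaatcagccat
Creld2: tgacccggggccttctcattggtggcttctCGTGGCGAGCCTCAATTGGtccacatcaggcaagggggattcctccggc
Syvn1: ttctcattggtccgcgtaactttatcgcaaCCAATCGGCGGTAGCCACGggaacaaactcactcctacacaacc
Herpud1: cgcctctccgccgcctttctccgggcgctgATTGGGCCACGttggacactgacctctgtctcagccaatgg
The Calr stretch is chr8:84847045-84847123 on the minus strand, with the motif at -162 to -144 from the start. Creld2 is chr15:88819490-88819568, plus strand, motif at -126 to -108. Syvn1 is chr19:6046502-6046575, plus strand, motif at -44 to -26. Herpud1 is chr8:94386347-94386417, plus strand, motif at -52 to -42. The motifs overlap in no promoter shown. The other 4 genes with an entry had no exact match in this window, which says only that these letters are not there.

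In liver, averaged over the 6 times, all 10 genes were lower on the MCD diet than on the control diet, and 6 of them fell by the test: Xbp1, Sdf2l1, Creld2, Hyou1, Edem1 and Calr. Of all liver genes 46.6% were called for diet, 21.2% lower and 25.3% higher, and 47.9% had a negative change. The median change of the 10 genes was -0.35 on the log2 scale, against 0.02 over all liver genes. Part of this depends on the scaling. TMM factors were 0.917 ± 0.0739 in control and 1.10 ± 0.0793 in MCD libraries (SD, n = 18), and scaling by library totals alone moved the median of all genes to 0.27, called 52.5% of liver genes higher and 7.61% lower, and left Edem1 as the only member called. Relative to the median of all genes, which moves with the scaling as each gene does, the change was -0.58 for Edem1 and -0.23 for Herpud1 with TMM. In bulk tissue fewer cells of a type and less RNA per cell cannot be told apart.

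Edem1, the lectin that hands misfolded glycoproteins to disposal, had the smallest p of the 10. In liver its 3 control libraries gave 194, 180 and 272 CPM at CT0, 198, 189 and 209 at CT4, 139, 181 and 222 at CT8, 212, 199 and 243 at CT12, 238, 224 and 250 at CT16, and 267, 327 and 264 at CT20. The MCD libraries gave 173, 166 and 149 CPM at CT0, 125, 126 and 127 at CT4, 138, 136 and 125 at CT8, 112, 149 and 133 at CT12, 176, 165 and 140 at CT16, and 161, 180 and 229 at CT20. At each of the 6 times all 3 MCD libraries lay under all 3 control libraries, which 0.677% of liver genes showed. At CT8 the lowest control library, the one that lies between the diets, read 139 CPM against 138 in the highest MCD library. Edem1 averaged 223 ± 43.6 CPM on control and 150 ± 28.0 on MCD (SD, n = 18 each), a change of -0.56 (SE 0.06, adjusted p 4.04e-08), and kept its call in all 44 alternative fits.

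**Figure D1:**
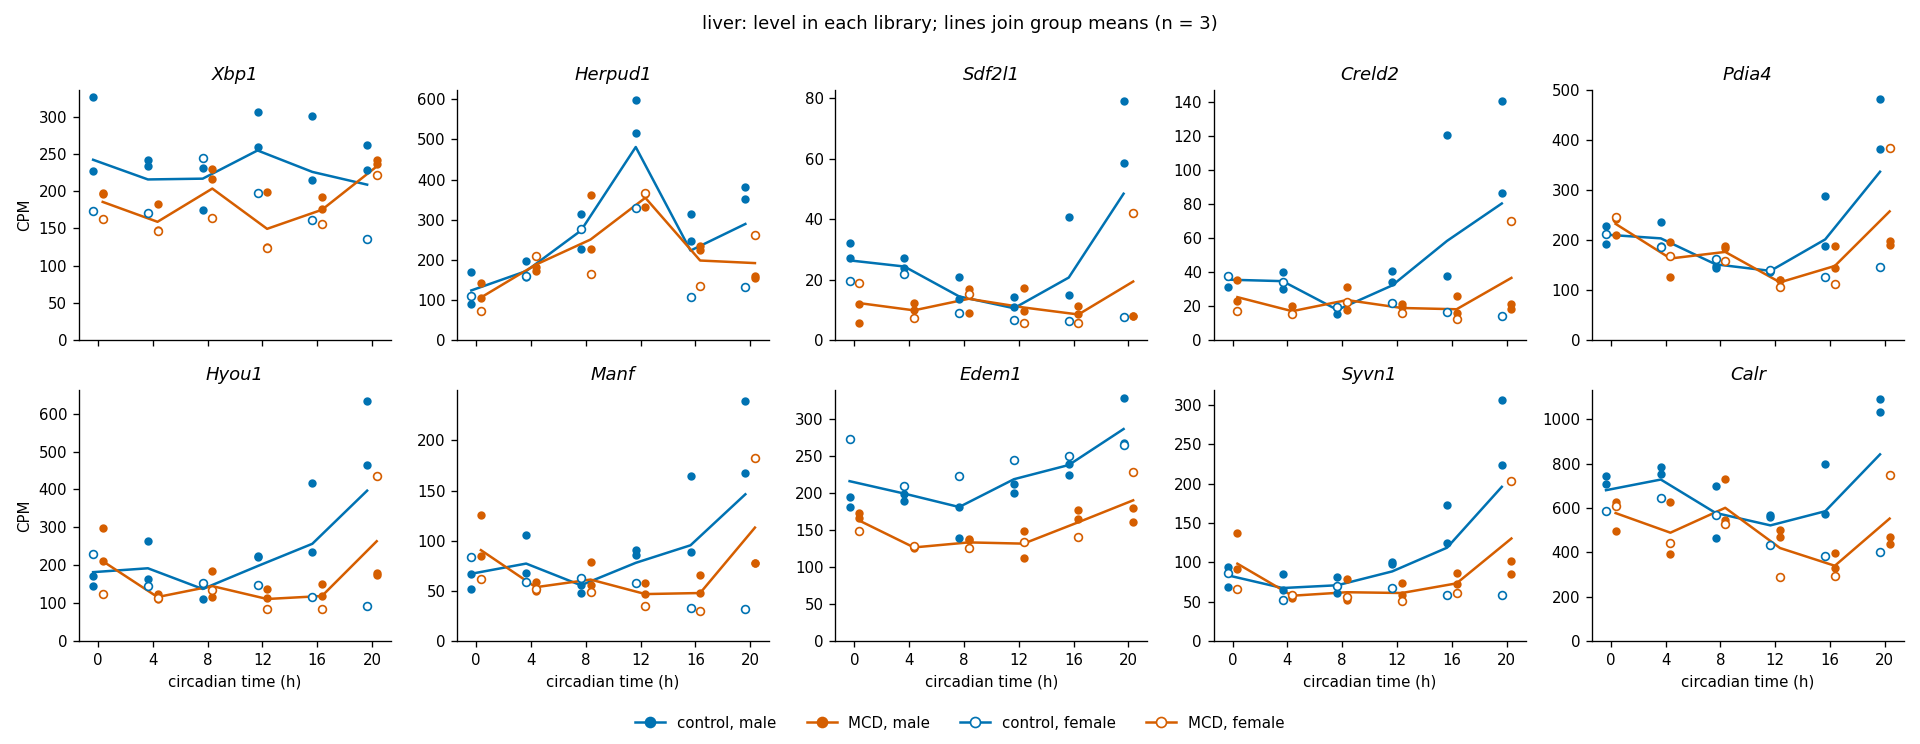
CPM of each of the 10 genes in every liver library (vertical axis, own scale per gene) against circadian time in hours, blue for control and orange for MCD, filled for males and open for females, with lines joining the group means (n = 3). At CT20 the control female sits far under the control males and the MCD female far over the MCD males in most panels, and Edem1 is lower on MCD at every time.

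The transcription factor gene Xbp1 ranged over 136, 230 and 326 CPM in liver on control (lowest, median, highest of 18) and over 124, 187 and 241 on MCD. The groups overlapped, but 15 of 18 MCD libraries lay under the control median. Its mean went from 227 ± 52.6 to 184 ± 36.5 CPM (SD, n = 18 each), a change of -0.30 (SE 0.08, adjusted p 0.0021).

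Among the lumenal proteins, Calr, whose product retains unfolded glycoproteins for another round of folding, spanned 385 to 1090 CPM on control (median 615) and 288 to 750 on MCD (median 482), and fell by 0.39 on the log2 scale (SE 0.11, adjusted p 0.0042). Creld2 spanned 14.0 to 141 CPM (median 34.1) and 12.8 to 70.3 (median 19.8), with 16 of 18 MCD libraries under the control median, and fell by 0.74 (SE 0.24, adjusted p 0.0125). Sdf2l1 spanned 6.27 to 79.1 CPM (median 20.2) and 5.69 to 42.1 (median 9.73), with 17 of 18 MCD libraries under the control median, and fell by 0.76 (SE 0.28, adjusted p 0.029). The changes of Sdf2l1 and Creld2 are the largest of the 10, and they carry the widest errors. Leaving out control CT16 library 1, control CT20 library 2, MCD CT20 library 1 or MCD CT20 library 2 in turn ended the call of Sdf2l1. Hyou1, the large Hsp70-like chaperone, spanned 93.1 to 634 CPM (median 168) and 84.0 to 435 (median 129) and fell by 0.47 (SE 0.19, adjusted p 0.041). That call was lost in 19 of the 36 fits that left out 1 library, so it stands close to the threshold.

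The other 4 genes did not pass the test. Manf, a secreted survival factor, averaged 86.6 ± 53.6 CPM on control and 68.9 ± 35.7 on MCD (-0.32, 95% interval -0.72 to 0.09, adjusted p 0.19). Syvn1 averaged 104 ± 66.6 and 80.5 ± 37.6 CPM (-0.30, interval -0.62 to 0.02, adjusted p 0.115). Herpud1 averaged 261 ± 141 and 215 ± 90.8 CPM (-0.21, interval -0.49 to 0.07, adjusted p 0.21), and Pdia4 207 ± 93.5 and 182 ± 65.6 CPM (-0.17, interval -0.42 to 0.08, adjusted p 0.28; SD, n = 18 each). The signs of Herpud1 (0.04) and Pdia4 (0.09) turned when libraries were scaled by their totals alone. By the GENCODE annotation at hand, Manf, Syvn1 and Herpud1 overlap other genes on the opposite strand, and Manf also overlaps Rbm15b on its own strand. The strand setting of the counting is not given here, and reads of these genes may be shared.

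**Figure D2:**
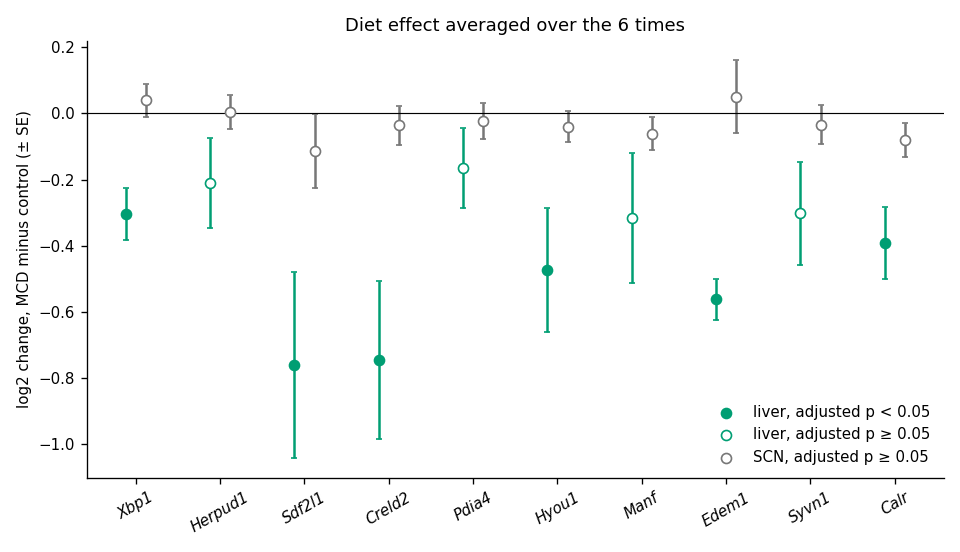
Log2 change, MCD minus control, averaged over the 6 times, for the 10 genes in liver and SCN, with bars of ± SE (vertical axis); filled points passed the test. In liver all 10 points lie under 0, from -0.76 for Sdf2l1 to -0.17 for Pdia4, while in the SCN they lie between -0.11 and 0.05.

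At single times 2 of the 10 genes were called in liver, both lower on MCD: Edem1 at CT4 (-0.65, adjusted p 0.0036), CT12 (-0.73, adjusted p 0.0023), CT16 (-0.56, adjusted p 0.0144) and CT20 (-0.60, adjusted p 0.0102), and Xbp1 at CT12 (-0.76, adjusted p 0.0092). The share of all liver genes called was 12.6% at CT0, 18.2% at CT4, 1.3% at CT8, 15.2% at CT12, 12.5% at CT16 and 11.3% at CT20. At CT12 the Xbp1 values were 306, 259 and 198 CPM on control and 199, 125 and 124 on MCD. The lowest control library was just under the highest MCD library, and the call was lost without control library 1 or without MCD library 2. The median change of the 10 genes was -0.23 at CT0, -0.53 at CT4, 0.02 at CT8, -0.63 at CT12, -0.71 at CT16 and -0.45 at CT20. The control group at CT8 holds the library that lies between the diets. Whether that library accounts for the value near 0 was not tested. The order of the times depended on the libraries: on males only the median was -0.93 at CT16 and -1.33 at CT20, and without both CT20 females -0.71 and -1.30. No member was called higher with TMM scaling. With library totals alone Xbp1 was the only member called at a single time, lower at CT12 (-0.41, adjusted p 0.043) and higher at CT20 (0.45, adjusted p 0.044), where TMM gave 0.20 (adjusted p 0.55). All 4 single-time calls of Edem1 ended with library totals alone (adjusted p 0.088 at CT4, 0.076 at CT12, 0.18 at CT16 and 0.10 at CT20), and that at CT16 ended on males only (adjusted p 0.089). Edem1's calls at CT16 and CT20 were each lost without 1 of 2 libraries: control CT16 library 1 or MCD CT16 library 3, and control CT20 library 2 or MCD CT20 library 1.

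At CT20 the single female library of each diet lay opposite to the males. The diet score speaks only to their diet: whether their labelled time holds was not tested. A mislabelled time and the response of a single animal were therefore not told apart. Creld2 read 86.3 and 141 CPM in the control males and 14.0 in the control female, against 18.4 and 21.4 in the MCD males and 70.3 in the MCD female. Sdf2l1 read 58.4, 79.1 and 7.72 CPM on control and 8.17, 7.97 and 42.1 on MCD, in the same order. Hyou1 read 464, 634 and 93.1 CPM on control and 179, 175 and 435 on MCD. Thus both control males lay over both MCD males, and the females had the opposite order of the diets. Manf, Syvn1, Pdia4 and Calr showed the same arrangement, with control males at 168 and 239, 224 and 306, 381 and 481, and 1032 and 1090 CPM and the female at 31.6, 58.0, 147 and 403. Their MCD males had 78.3 and 78.3, 85.7 and 102, 190 and 199, and 438 and 468 CPM, and the female 183, 203, 384 and 750. Herpud1 was arranged likewise, with control males at 353 and 383 CPM and the female at 133. Its MCD males had 155 and 159 CPM and the female 263. For Edem1 the MCD female (229 CPM) still lay under the control female (264 CPM).

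A fit on males only, planned among the alternatives, called all 10 genes lower on MCD, with a median change of -0.51, where 38.8% of liver genes were called and 18.1% called lower. In the fit on males 9 genes were called lower at CT20 itself, all but Xbp1, where 7.41% of liver genes were called and 3.93% called lower. Sdf2l1 stood at -3.11 there (adjusted p 0.0029), Creld2 at -2.54 (adjusted p 0.0057), Hyou1 at -1.65 (adjusted p 0.0059) and Syvn1 at -1.52 (adjusted p 0.0049), each from 2 males per diet. A fit without the CT20 females of both diets was added after these values had been seen. Since it leaves those libraries out for their values of these genes, its changes are a description without a test: the median of the 10 genes was -0.52 over the day. Leaving out MCD CT20 library 3, the female, was alone enough to call all 10 over the day. Over the 36 fits that left out 1 library, 8964 to 10049 liver genes were called, beside 9426 of 20249 with all libraries.

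The sexes were compared directly as a difference in the diet effect. Creld2 averaged 52.9 ± 40.6 CPM in control and 22.1 ± 6.07 in MCD males (SD, n = 12) but 24.0 ± 9.61 in control and 25.7 ± 22.1 in MCD females (SD, n = 6). Calr averaged 732 ± 186 and 502 ± 114 CPM in males and 503 ± 109 and 485 ± 182 in females. The CT20 pair carries these female means: without it Creld2 averaged 25.9 ± 9.27 CPM in control and 16.8 ± 3.51 in MCD females (SD, n = 5), and Calr 523 ± 109 and 432 ± 142, lower on MCD as in males. The male means still include CT20, so the sexes are not averaged over the same times there. A fit without that pair compares the sexes within each diet and time. In it the female minus male change was 0.02 for Creld2 and 0.08 for Calr. Without the pair Sdf2l1 averaged 30.3 ± 20.4 CPM in control and 10.7 ± 3.44 in MCD males (SD, n = 12). In females it averaged 12.7 ± 7.52 and 10.7 ± 6.14 CPM (SD, n = 5). The pair was left out for its values of these genes, so this is a description. With all libraries the female minus male change was called for none of the 10 genes (1.77% of liver genes were called). Sdf2l1 had the lowest adjusted p, 0.19 (1.53, SE 0.55), and was the only member under an unadjusted p of 0.05. A difference between the sexes was therefore not established, and each group holds 1 female.

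Within liver groups of identical diet and time the same library was often highest for several of the genes, though not for Herpud1. Taking Hyou1 as reference, the library with the highest Hyou1 of its 3 was also highest for Manf in 11 of 12 liver groups, for Creld2 and Calr in 10, for Sdf2l1 in 9, for Xbp1, Pdia4, Edem1 and Syvn1 in 8 and for Herpud1 in 5. In the SCN these counts were 3 to 8, with Creld2 at 3 and Edem1 at 4. The widest spread was in the control CT20 liver group, where the highest library exceeded the lowest 10.2-fold for Sdf2l1 and 10.0-fold for Creld2, against median ratios over the groups of 2.23 and 1.82. The genes share the library, its depth and its scaling in each case, so these counts are a description.

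Mean levels of some of the genes also differed between the kinds of liver library by mt-Nd6, not in the same direction on both diets. The values of the kinds overlapped, and no test between them was made for single genes. In control livers Hyou1 averaged 276 ± 173 CPM in the high kind (SD, n = 10) and 166 ± 54.0 in the low kind (SD, n = 8), and on MCD 140 ± 53.2 (SD, n = 5) and 169 ± 95.8 (SD, n = 13). Edem1 averaged 232 ± 47.6 and 211 ± 37.9 CPM on control and 144 ± 18.0 and 153 ± 31.3 on MCD, so it was lower on MCD within each kind. Xbp1 on MCD averaged 184 CPM in either kind. With the kind as a term in the fit 5 of the 10 genes were called, where 44.1% of liver genes were called and 20.2% called lower. The call of Hyou1 was lost, at a change of -0.41 (adjusted p 0.115 by edgeR) against -0.47 without the term. The part of the kind in the result was not tested beyond that fit.

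A 24 h component was fitted to each diet as a cosine and a sine over the 6 times, and its range is the log2 distance from trough to peak. In control liver 5 of the 10 genes were called, where 17.8% of liver genes were. Herpud1 peaked in early subjective night, at CT 12.5 ± 0.74 h (SE), with a range of 1.40 (SE 0.27, adjusted p 0.0024). Its control values at CT12 were 598, 516 and 330 CPM, and at CT0 they were 91.2, 170 and 111, with no overlap. The others peaked later: Syvn1 at CT 18.5 (range 1.26, SE 0.31, adjusted p 0.0178), Edem1 at CT 18.9 (range 0.55, SE 0.12, adjusted p 0.0071), Creld2 at CT 19.4 (range 1.67, SE 0.47, adjusted p 0.046) and Pdia4 at CT 21.4 (range 1.01, SE 0.24, adjusted p 0.0141). Leaving out 1 library ended the call of Creld2 in 30 of 36 fits. It ended that of Pdia4 without control CT20 library 2, and that of Syvn1 without control CT8 library b, control CT16 library 1 or control CT20 library 2. Without the control CT20 female 9 genes were called, all but Xbp1. So they were without both CT20 females, where 17.8% of liver genes were called. These females stand out by their values of these genes, so the counts are a description.

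On MCD 4 of the 10 genes were called in liver, where 28.2% of liver genes were. Herpud1 had a range of 1.30 (SE 0.27, adjusted p 0.0026) and a peak at CT 11.5, Edem1 0.56 (SE 0.12, adjusted p 0.0038) and CT 19.8, Syvn1 1.12 (SE 0.31, adjusted p 0.025) and CT 20.7, and Pdia4 0.95 (SE 0.24, adjusted p 0.0134) and CT 23.0. Herpud1 on MCD read 365, 332 and 367 CPM at CT12 and 142, 104 and 72.9 at CT0. The call of Syvn1 on MCD was lost without MCD CT0 library 1, MCD CT8 library 2, MCD CT8 library 3 or MCD CT20 library 3. Without both CT20 females, as a description, its range was 0.67. The call of Pdia4 on MCD was lost on males only (0.60, adjusted p 0.064). Xbp1 itself was called in neither diet in liver (range 0.12, SE 0.16, adjusted p 0.86 on control and 0.31, SE 0.16, adjusted p 0.29 on MCD).

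The difference between the diets in the 24 h component was called for none of the 10 genes in liver (lowest adjusted p 0.49, none under an unadjusted p of 0.05), against 4.87% of liver genes. On males only it was called for Sdf2l1 (2.66, adjusted p 0.036) and for no other member, with Creld2 next (2.33, adjusted p 0.0505), where 2.66% of liver genes were called. A 12 h component, the pattern that times 12 h apart share, was called for no member on control, on MCD or for their difference (0.0642%, 0% and 0.00988% of liver genes). Unadjusted p-values under 0.05 numbered 0, 2 and 1 of 10.

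**Figure D3:**
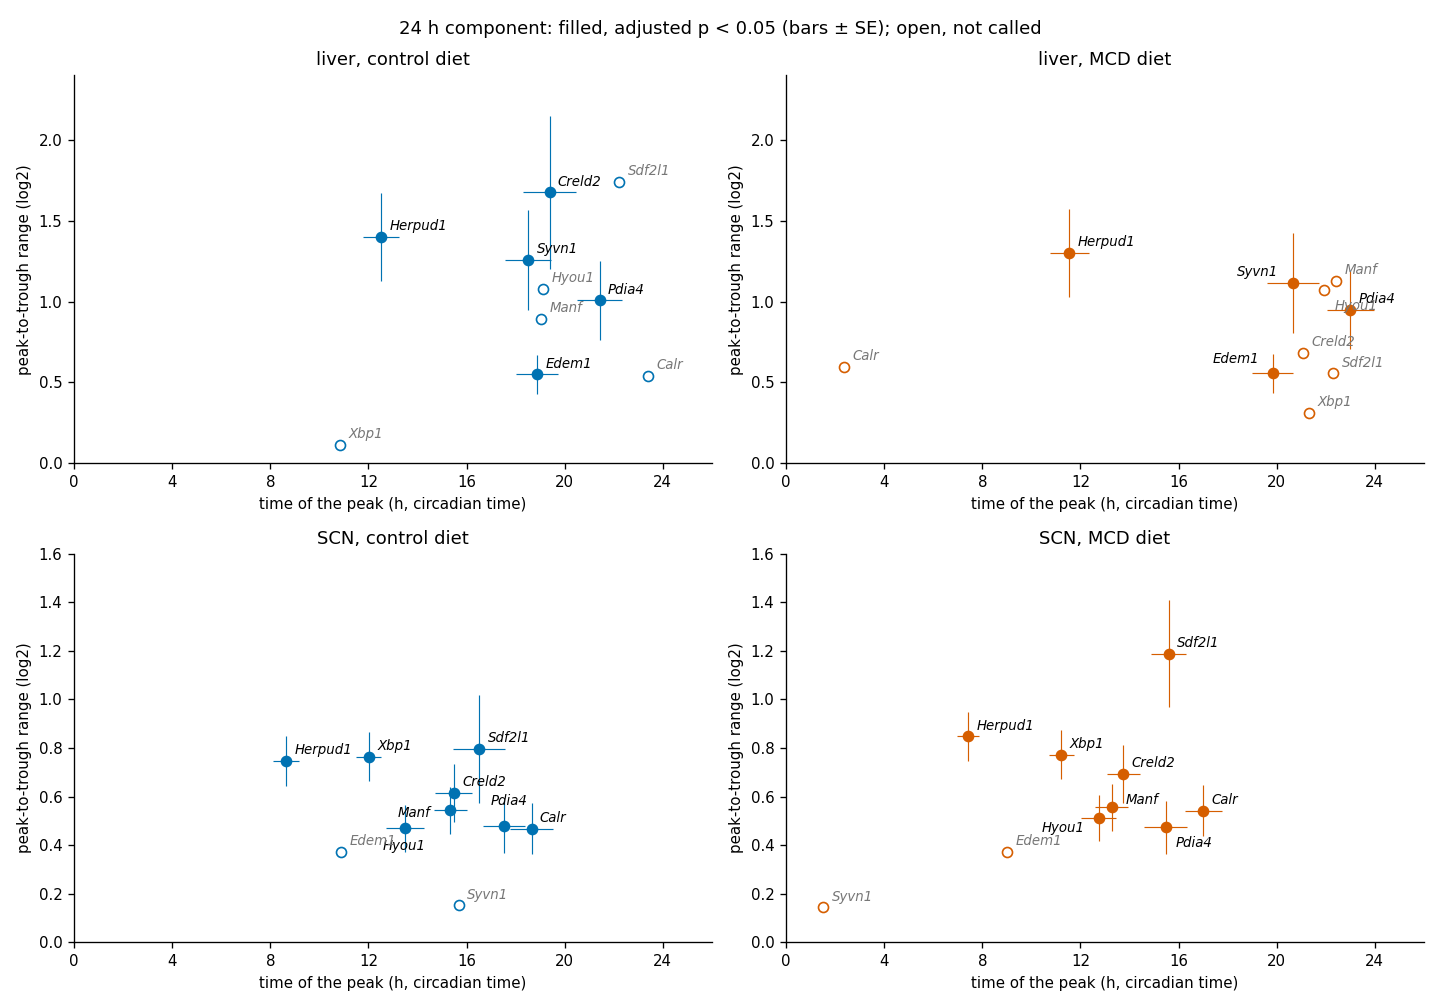
Peak time in hours (horizontal axis) against trough-to-peak range of the fitted 24 h component (vertical axis, log2) for the 10 genes, in liver and SCN on each diet, filled with bars of ± SE where the component was called and open otherwise. In the SCN 8 genes are filled on both diets, with peaks from CT 7.4 to CT 18.6, and in liver 5 are filled on control and 4 on MCD.

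In the SCN none of the 10 genes was called for diet by edgeR, nor by DESeq2 or limma-voom, with changes of -0.11 to 0.05, a median of -0.04 and no unadjusted p under 0.05, where 0.0635% of SCN genes were called. Edem1, lower in liver, was 13.4 ± 3.18 CPM on control and 13.8 ± 2.09 on MCD (SD, n = 18 each), a change of 0.05 with a 95% interval of -0.18 to 0.28. Xbp1 was 199 ± 43.3 and 204 ± 42.8 CPM (0.04, interval -0.06 to 0.14), and Calr 388 ± 65.1 and 368 ± 65.7 CPM (-0.08, interval -0.19 to 0.03). The interval of Sdf2l1 was -0.34 to 0.11. No member was called at a single time either, with shares of all SCN genes of 0.00635% at CT0, CT16 and CT20, 0.0444% at CT4 and 0% at CT8 and CT12, and 1 unadjusted p under 0.05 among the 10 at CT0 and at CT20. The sex difference in the diet effect was called for no member and no gene (0%), and no member had an unadjusted p under 0.05.

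**Figure D4:**
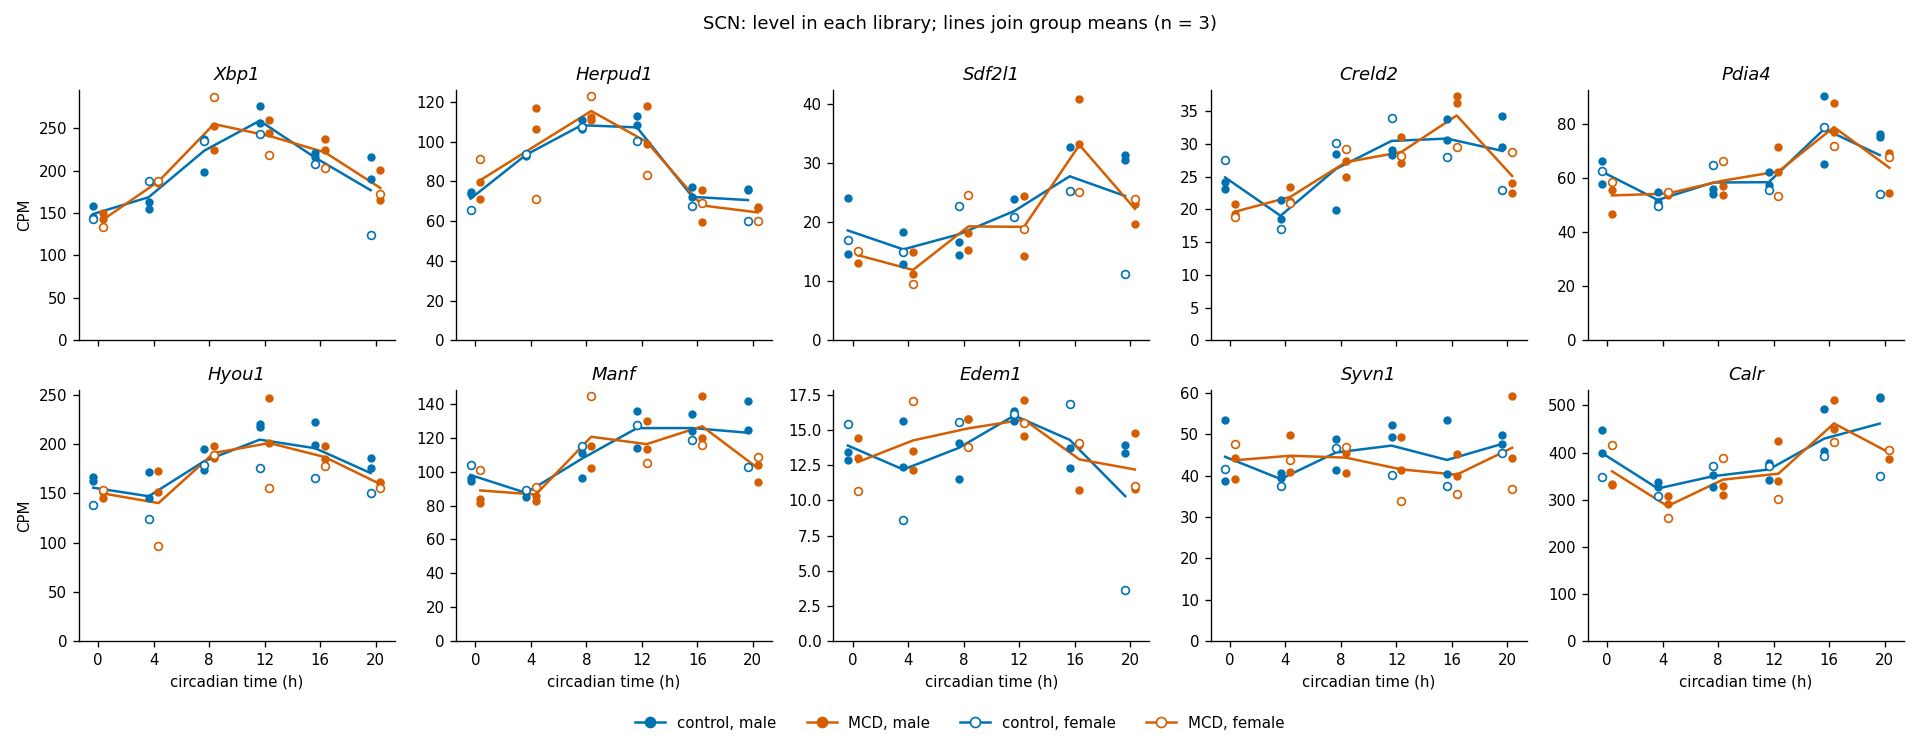
CPM of each of the 10 genes in every SCN library (vertical axis, own scale per gene) against circadian time in hours, blue for control and orange for MCD, filled for males and open for females, with lines joining the group means (n = 3). Over the day the diets overlap in each gene, and Xbp1 and Herpud1 rise and fall over the day on both.

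The SCN showed the daily component in the same 8 genes on both diets, all but Edem1 and Syvn1, where 15.1% of SCN genes were called on control and 16.1% on MCD. Herpud1 peaked earliest, at CT 8.6 ± 0.52 h (SE) on control (range 0.75, adjusted p 1.37e-05). Its control values were 74.4, 73.7 and 65.5 CPM at CT0, 93.1, 92.9 and 93.9 at CT4, 111, 106 and 107 at CT8, 108, 113 and 100 at CT12, 77.1, 71.9 and 67.5 at CT16 and 75.5, 76.3 and 59.9 at CT20. All libraries from CT4 to CT12 lay over all libraries of the other times. Xbp1 peaked at CT 12.0 ± 0.50 h (range 0.76, adjusted p 8.78e-06), with 145, 158 and 143 CPM at CT0 and 256, 277 and 243 at CT12. The lumenal proteins followed: Hyou1 at CT 13.5 (range 0.47), Manf at CT 15.3 (0.54), Creld2 at CT 15.5 (0.61), Sdf2l1 at CT 16.5 (0.80), Pdia4 at CT 17.5 (0.48) and Calr at CT 18.6 (0.47), with adjusted p from 0.00072 to 0.037. SEs of these peaks were 0.69 to 1.06 h, so neighbours in the order are not separated. The call of Sdf2l1 on control was the weakest, and was lost in 11 of 36 fits that left out 1 library.

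On MCD the 8 SCN peaks came in nearly the same order: Herpud1 at CT 7.4 (range 0.85), Xbp1 at CT 11.2 (0.77), Hyou1 at CT 12.7 (0.51), Manf at CT 13.3 (0.56), Creld2 at CT 13.7 (0.69), Pdia4 at CT 15.5 (0.47), Sdf2l1 at CT 15.6 (1.19) and Calr at CT 17.0 (0.54). Each was 0.73 to 2.06 h earlier than on control, with SEs of 0.69 to 1.28 h. The difference between the diets was called for no member (adjusted p 1, none under an unadjusted p of 0.05, 0.0127% of SCN genes called), so an earlier phase was not established. The 12 h component was called for no member on either diet or for the difference (0.019%, 0.0317% and 0% of SCN genes), with 1 unadjusted p under 0.05, for the difference. Edem1 in the SCN read 13.9, 13.3 and 3.64 CPM at CT20 on control, the low value being the female library, and its range was 0.37 (SE 0.22, adjusted p 0.46).

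Liver and SCN were compared in a model over all 72 libraries, which treats the libraries of the 2 tissues as independent. The diet effect was more negative in liver for Edem1 (-0.61, SE 0.13, adjusted p 0.00016), Xbp1 (-0.35, SE 0.09, adjusted p 0.0031), Creld2 (-0.71, SE 0.25, adjusted p 0.020) and Calr (-0.32, SE 0.12, adjusted p 0.043), where 34.7% of the 14491 genes tested in both tissues were called. The 24 h component differed between the tissues for 3 members on control, Xbp1, Herpud1 and Syvn1, and for 8 on MCD, all but Sdf2l1 and Creld2. The shares over all genes were 16.9% and 28.3%. For Xbp1 this is a component in the SCN (0.76 on control) without a called one in liver, and for Herpud1 a range of 1.40 with a peak at CT 12.5 in liver beside 0.75 and CT 8.6 in the SCN. For diet the members' count, 4 of 10, lies near the share over all genes. Without 1 replicate number 1 to 9 members were called for diet, where 20.3% to 30.3% of genes were. The fit without replicate 3, the females, is the one on males only. Of the diet calls, Edem1 alone held in each of these fits and with library totals alone. Those of Xbp1, Creld2 and Calr were lost without replicate 1 and without replicate 2, as were all 3 calls of the daily component on control. The counts for that component were 0 to 9 on control and 1 to 8 on MCD. Shares over all genes in these fits were 4.16% to 15.8% and 10.3% to 19.6%.

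The wider pathway was described with lists of other genes, whose counts stand beside the 25.3% of all liver genes called higher and 21.2% called lower. Of 18 further ER folding genes, which include the chaperones BiP (Hspa5) and GRP94 (Hsp90b1), 10 fell, 3 rose and 5 did not pass in liver, with a median of -0.25. Hsp90b1 went from 878 ± 283 to 564 ± 150 CPM (SD, n = 18 each), a change of -0.64 (SE 0.11, adjusted p 3.22e-05), and Pdia6, a disulfide isomerase, from 259 ± 87.4 to 178 ± 44.8 CPM (-0.49, SE 0.13, adjusted p 0.0020). BiP itself had 786 ± 432 and 674 ± 260 CPM and did not pass (-0.20, SE 0.15, adjusted p 0.28). Dnajc10, an ER reductase, rose by 0.40 (adjusted p 5.13e-06) and Txndc5 by 0.32 (adjusted p 0.0020). With library totals alone 6 of these 18 were called higher and 1 lower, with a median of 0.00, beside the 52.5% and 7.61% of all liver genes at that scaling.

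Calls in ER-associated degradation lay on both sides: of 18 further genes 7 fell, 6 rose and 5 did not pass, with a median of -0.06. Derl2, a channel component, fell by 0.73 (adjusted p 1.07e-08) and Erlec1, a lectin, by 0.37 (adjusted p 6.45e-07), while Selenos rose by 0.34 (adjusted p 0.00074) and the conjugating enzyme gene Ube2g2 by 0.25 (adjusted p 0.00074). Of 30 genes of ER entry and exit 6 rose, 6 fell and 18 did not pass (median -0.01), among them Spcs3, a signal peptidase subunit (-0.41), Rpn1, an oligosaccharyltransferase subunit (-0.39), Sec24d, a coat protein of export vesicles (0.34) and the retrieval receptor gene Kdelr3 (1.76). Kdelr3 was at a low level, 0.313 ± 0.295 and 1.06 ± 0.804 CPM. With library totals alone these lists had 12 higher and 1 lower, and 21 higher and 1 lower, beside 52.5% of all liver genes called higher and 7.61% lower. On males only they had 2 higher and 8 lower, and 3 higher and 9 lower, where 20.7% of all genes were called higher and 18.1% lower. Without both CT20 females the counts were 5 and 8, and 4 and 10, where the shares were 24.8% and 20.1%. With TMM and all libraries the shares called higher and lower for entry and exit were each near the share over all genes.

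The PERK branch had the opposite sign. All 9 genes of that list rose in liver (median 1.48, and 1.73 with library totals alone, where all 9 were again called higher beside 52.5% of all genes, against 8 on males only). Atf3, a stress-induced transcription factor, went from 1.67 ± 2.07 to 21.6 ± 14.4 CPM (SD, n = 18 each; 3.78, SE 0.31, adjusted p 8.14e-10), and Nupr1, a stress-induced chromatin protein, from 1.72 ± 1.61 to 17.8 ± 13.3 CPM (3.29, SE 0.28, adjusted p 1.44e-09). Several of these genes also respond to other stresses, amino acid shortage among them. Of 10 sensors and genes that process them 5 rose and none fell (median 0.18), and with library totals alone all 10 were called higher (median 0.43), at a scaling that called 52.5% of all liver genes higher. On males only, and with a term for the mt-Nd6 kind, 4 of the 10 sensors were called higher, where 20.7% and 24% of all genes were. The PERK gene Eif2ak3 rose by 0.56 (adjusted p 0.00014) and Creb3l1 by 0.90 (adjusted p 0.00025). Creb3l1 was at a low level, 1.09 ± 0.584 CPM on control and 2.06 ± 1.32 on MCD. In the SCN none of the 83 list genes tested was called for diet by edgeR, DESeq2 or limma-voom, and 3 had an unadjusted p under 0.05.

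**Figure D5:**
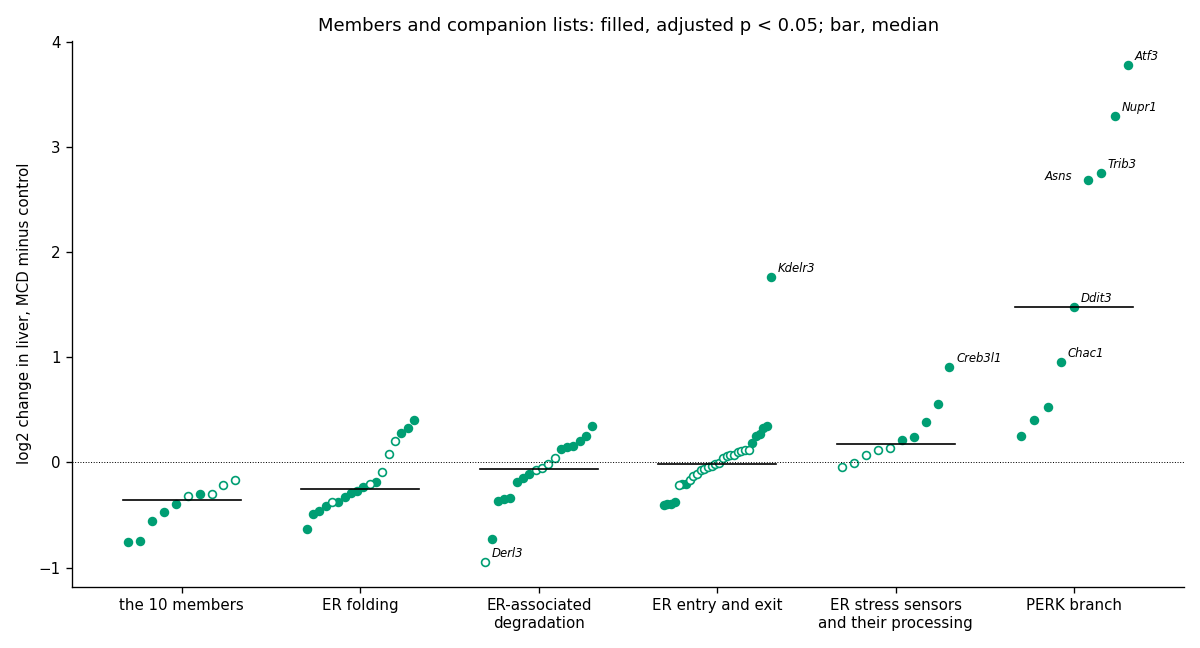
Log2 change in liver, MCD minus control (vertical axis), of each gene of each list, ordered by value along the horizontal axis within its list, filled where called, with the list's median as a bar. The PERK branch lies wholly over 0 with a median of 1.48, and the 10 genes described here wholly under it with a median of -0.35.

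Markers of other cell types in liver moved with diet as well. All 6 Kupffer cell and macrophage genes were higher on MCD (summed level 206 to 449 CPM on control and 265 to 501 on MCD), as were 3 of 4 endothelial and 1 of 4 tested stellate cell genes, and 4 of 5 red blood cell genes were lower (130 to 453 and 93.7 to 273 CPM). Of 6 hepatocyte genes 3 were lower and none higher, with median sums of 96172 and 100218 CPM. Of the plasma cell genes, a cell type rich in ER proteins, none of 5 tested was called (3.76 to 19.7 and 4.81 to 17.5 CPM), and Tnfrsf17 was not in the table. Their part in the result was not tested. In the SCN edgeR called none of the 34 marker genes tested. Of these 15 had an unadjusted p under 0.05, beside 746 of all 15759 SCN genes. Among them were all 5 red blood cell genes, with median sums of 231 CPM on control and 116 on MCD. The others were 4 of 8 SCN neuron, 2 of 4 oligodendrocyte, 2 of 4 astrocyte, 1 of 3 macrophage and 1 of 2 endothelial genes. So a like cell content of the SCN on both diets was not established.

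The genes most like the 10 in their pattern over the 12 group means were sought by Pearson's r with the members' mean profile. In liver, over 13840 genes, these were Sel1l (0.938), which anchors Hrd1, Magt1 (0.938), Hsp90b1 (0.931), Dnajb11 (0.925) and Dnajc3 (0.917), both cofactors of BiP. In the SCN, over 15722 genes, Hspa5 (0.951), which encodes BiP, came first, followed by Cdh13 (0.942), Tafa4 (0.934), Irag1 (0.920) and Npbwr1 (0.917). A member's own values enter that profile, so each was instead set against the mean of the other members: Hyou1 lay closest in liver (0.954) and Manf in the SCN (0.953), and Herpud1 lay apart in both (-0.18 and -0.10). The 12 means share diet and time, and these values are a description across group means.

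Counts per exon bin were compared for 34 complete liver libraries (16 control, 18 MCD) to see whether the share of reads per bin within a gene differed by diet. The 2 liver libraries without a complete file are both control males at CT0, so control CT0 rests on its female library there. No member was called by the Simes test (3.48% of 11694 genes were). Syvn1 had the lowest p (adjusted p 0.58, unadjusted p 0.046), and no other member had an unadjusted p under 0.05. The gene-wise F test, an alternative that called 669 genes, called Edem1 alone of the 10 (adjusted p 0.032 against 0.88 by Simes).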

How the data were processed

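The deposited tables hold raw counts per gene, 1 column per library, and further deposited files hold raw counts per exon bin. Per the submitters' processing notes, Trimmomatic, HISAT2, StringTie, DESeq2 and build GRCm39 were used; the sources used here do not give their roles, versions, annotation or strand setting. The 10 genes, the lists and the tests were chosen with earlier results of these data known.

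Counts were tested with edgeR 4.0.16 (R 4.3.3) after filterByExpr (minimum count 10): TMM factors, robust quasi-likelihood fit of 12 group means and sex, Benjamini-Hochberg adjustment over all genes of the tissue. Contrasts were the diet effect over the day and at each time, 24 h and 12 h components, and sex by diet. The named genes were the 10 members, the 2 most raised and 2 most lowered called genes per list, Hspa5, and the 5 nearest profiles per tissue. Control CT8 libraries a and b carry no number in the table and were used as replicates of their group. Exon bins were tested with diffSpliceDGE in 34 liver libraries; 2 files that end early and the SCN bins were not used, and 4.52% to 21.4% of the counts per file lay in tallies outside bins and were left out. DESeq2 1.42.0 and limma 3.58.1 were alternatives, with library totals, no filter, males only, a library-kind term, a replicate block and leaving out each library. Replicate libraries differed beyond counting noise (lowest chi-square per degree of freedom 24.1). The scripts were tested on simulated data.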

Additional observations from a re-analysis of the deposited data

Results flagged for a closer look

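The liver and SCN differed under the same contrast for several of the 10 genes, by edgeR's test of the difference itself in the model of all libraries, where 34.7% of the 14491 genes were called for diet and 16.9% and 28.3% for the 24 h component on control and MCD. The 4 of 10 for diet lie near that share. For diet the liver minus SCN change was -0.35 for Xbp1, -0.71 for Creld2, -0.61 for Edem1 and -0.32 for Calr. For the 24 h component, tested by an alternative added after the data were seen, the trough-to-peak range of the difference on control was 0.67 for Xbp1, 1.17 for Herpud1 and 1.15 for Syvn1. On MCD it was 1.05 for Xbp1, 1.18 for Herpud1, 1.20 for Pdia4, 1.48 for Hyou1, 1.57 for Manf, 0.91 for Edem1, 1.07 for Syvn1 and 1.07 for Calr. The diet calls of Xbp1, Creld2 and Calr were lost without replicate 1, without replicate 2 and with library totals alone, which left 1 member called. All 3 control calls of the 24 h component were lost without replicate 1 and without replicate 2, which left 2 and 1 of the 8 on MCD. Libraries of the tissues may share mice, which the labels do not tie, and the model treats them as independent.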

How the results depend on the processing

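Of the 10 genes, the number called for diet in liver over the day (6) was 1 with library totals alone, 10 on males only, 10 without both CT20 females and 4 to 10 with 1 library left out. At single times in liver (2) it was 1 (Xbp1), 10, 10 and 1 to 5 in the same order, and 4 with DESeq2. For the 24 h component in control liver (5) it was 9 on males only, 9 without both CT20 females and 2 to 9 with 1 library left out; on MCD (4) it was 3 to 6. For the difference between the diets (0) it was 1 on males only and 2 without both CT20 females. Liver minus SCN, the number for diet (4) was 1 with totals and 9 on males only, where 42.4% and 30.3% of genes were called. With a replicate number or control CT8 library a left out it was 1 to 9 (20.3% to 38.3%). For the 24 h component on control (3) it was 9 on males only (15.8%) and 7 with DESeq2 (21.5%). It was 0 to 9 with these libraries left out (4.16% to 16.4%), and on MCD (8) 1 to 8 (10.3% to 30.1%). Leaving out replicate 3, the female of each group, is the fit on males only and no separate alternative. Control CT8 libraries a and b carry no number and stay in the fits without replicate 1 or 2. Exon usage (0) was 1 with the F test. Without control CT8 library a alone, 6 genes were called for diet over the day, 3 at single times, 4 for the control and 4 for the MCD 24 h component in liver. In the SCN the counts were 7 to 8 on control and 8 on MCD for the 24 h component with 1 library left out, and 0 for all other comparisons. The counts of 0 with edgeR were also 0 with DESeq2 and limma-voom. No called change turned its sign under an alternative, and the cause of these shifts was not tested. The CT20 females were left out for their values of these genes, so counts without them are a description.

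The replicate numbers are shared by the diets but do not pair the samples: over 16 liver pairs the deviations correlated at -0.21 to 0.29 (5 over 0.1). With the replicate block 6 genes were called for diet over the day in liver and 2 at single times, as without it.

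The shares over all genes moved too: over all alternatives the liver genes called were 7821 to 12173 for diet over the day (9426), 1229 to 3971 at CT0 (2550), 1994 to 5488 at CT4 (3679), 37 to 1212 at CT8 (263), 1249 to 6475 at CT12 (3081), 961 to 4162 at CT16 (2532), 1238 to 3560 at CT20 (2288), 537 to 2017 for the 24 h difference (986) and 3624 to 6554 for the 24 h component on MCD (5704), and in the SCN 7 to 49 for diet (10). A test of retained Xbp1 intron reads was planned and not run, since the bins could not be identified here. Calls of lowly expressed genes such as Kdelr3 are limited by depth, and 1 female per group limits any statement on sex.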

Other observations

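A 24 h component was also called in other genes of the ER in the SCN, where 15.1% of all genes were called on control and 16.1% on MCD. Of 18 further ER folding genes 7 had a called 24 h component on control and 7 on MCD, of 18 degradation genes 6 and 8, of 9 sensors 4 and 5, of 30 genes of ER entry and exit 8 and 7, and of 8 PERK branch genes 2 and 2. Hspa5, the BiP gene, had a range of 0.57 with a peak at CT 15.0 on control (adjusted p 0.00062 by edgeR) and 0.58 with a peak at CT 13.7 on MCD (adjusted p 0.00055). In liver its range was 0.91 with a peak at CT 19.1 on control (adjusted p 0.090) and 1.05 with a peak at CT 22.3 on MCD (adjusted p 0.030). The corresponding liver counts were 3 and 5 for folding, 3 and 8 for degradation, 2 and 5 of 10 for the sensors, 4 and 15 for entry and exit and 2 and 4 of 9 for the PERK branch, beside 17.8% of all liver genes on control and 28.2% on MCD. The counts of folding in liver lie near the share over all genes on both diets, and those of the other lists lie near it on control.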
